A study of Mus musculus with 13 samples.

Results

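Betaretrovirus-like elements of the mouse genome were followed through spermatogenesis by the small RNAs that match them. The sequences are the 24 of 262 listed retrotransposon consensus sequences whose names begin with ERVB or ETn, 21 ERVB and 3 ETnERV sequences. Of the ERVB sequences, 8 are internal regions (names with -I) and 13 are long terminal repeats (LTRs, names with -LTR). Each is a consensus of dispersed copies and has no single position in the genome. No consensus sequence was among the files used here, so no bases are printed.

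ERVB and ETn elements are endogenous retroviruses of class II, the class that also holds the intracisternal A particles. An internal region encodes the viral proteins where it is intact, and the LTRs that flank it carry the promoter and the polyadenylation signal. ETn, the early transposon, lacks coding capacity for its own proteins, and some of its copies still move in the mouse germ line with the help of related coding elements. That description is of ETn itself, whose internal region is listed as MMETn-int. It was not taken to hold for the ETnERV sequences, whose coding capacity was not examined. In male germ cells, PIWI-interacting RNAs (piRNAs) of 24-33 nt guide PIWI proteins to such transcripts. Antisense piRNAs are complementary to the retrotransposon RNA and can direct its cleavage, whereas sense piRNAs have the sequence of that RNA itself. Pld6 encodes a mitochondrial endonuclease that makes the 5' ends of primary piRNAs.

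The male germ cells came from C57BL6/J mice aged 3 to 4 weeks and were sorted by FACS after Hoechst-33342 staining, and their small RNAs were sequenced. A set of 5 libraries without technical replicates comprised spermatogonia (SG, n = 1), leptotene/zygotene spermatocytes (LZ, n = 2), pachytene/diplotene spermatocytes (PD, n = 1, spelled diptotene in the labels) and round spermatids (RS, n = 1). A further set of 8 libraries comprised spermatogonia (SG_T, n = 2) and leptotene/zygotene spermatocytes (LZ_T, n = 2), each sample sequenced as a technical replicate of 50 bp and another of 100 bp, whose values were averaged. No sample label gave a genotype. The tables of the SG_T and LZ_T libraries carry a Pld6 knockout tag in their header cell and those of the first set, taken as wild type, carry a stage name only. Genotype, depth and everything else that separates the sets cannot be told apart, and the labels describe no knockout allele. Small RNA reads do not measure the Pld6 transcript, so the tag was not checked against the gene.

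Abundance is given as RPM, the read count normalised to the size of the library, as deposited. The first set held 12541019 to 29956080 reads per library and the T set 852565 to 7725276. A count of 3 reads, taken here as the floor, was therefore worth 0.1001 to 0.239 RPM in the first set and 0.388 to 3.52 RPM in the T set. Of the mature miRNAs fixed as markers, miR-449a-5p of meiotic and later germ cells rose from 5.57 RPM in SG through 24.2 and 36.1 RPM in LZ to 92.9 RPM in PD and 161.5 RPM in RS, and lay at 6.38 to 17.4 RPM in the LZ_T libraries. Of the 6 markers of somatic cells, 4 were in the reference table. Summed, they lay at 63.7 and 157 RPM in LZ and 890.5 to 2446 RPM in the 4 LZ_T libraries, at 339.5 RPM in SG and 536 to 1138 RPM in SG_T, and at 4.29 RPM in PD and 5.90 RPM in RS. Between SG and SG_T the single markers differed. In SG, miR-126a-3p (204 RPM) and miR-223-3p (0.15 RPM) lay below their SG_T ranges (427 to 962 and 0.81 to 7.16 RPM). By contrast, miR-199a-3p (127 RPM) and miR-451a (8.51 RPM) lay within theirs (66.6 to 168 and 6.26 to 19 RPM). Any part of somatic cells in the differences between the sets was not tested. These are bulk samples, in which fewer cells of a type and less RNA per cell cannot be told apart.

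All 24 sequences together gave 138 RPM in SG, 172 and 271 RPM in the LZ libraries, 264 RPM in PD and 273 RPM in RS. Over the same samples the 262 listed sequences fell from 32895 RPM in SG to 6533 RPM in RS. The ERVB and ETn share of listed reads was 0.418% in SG, 0.776% and 0.719% in the LZ libraries, 1.73% in PD and 4.17% in RS. It was higher in every later stage, although the 95% Poisson intervals of the summed RPM overlapped between PD, RS and the higher LZ library. The 6 highest sequences of each library held 88.3% to 97.9% of these reads in the first set, and 6 of the 24 reached 10 RPM in at least 1 group. SG, PD and RS have no replicate, so every stage comparison that follows is a description, and intervals cover counting error only.

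**Figure D1:**
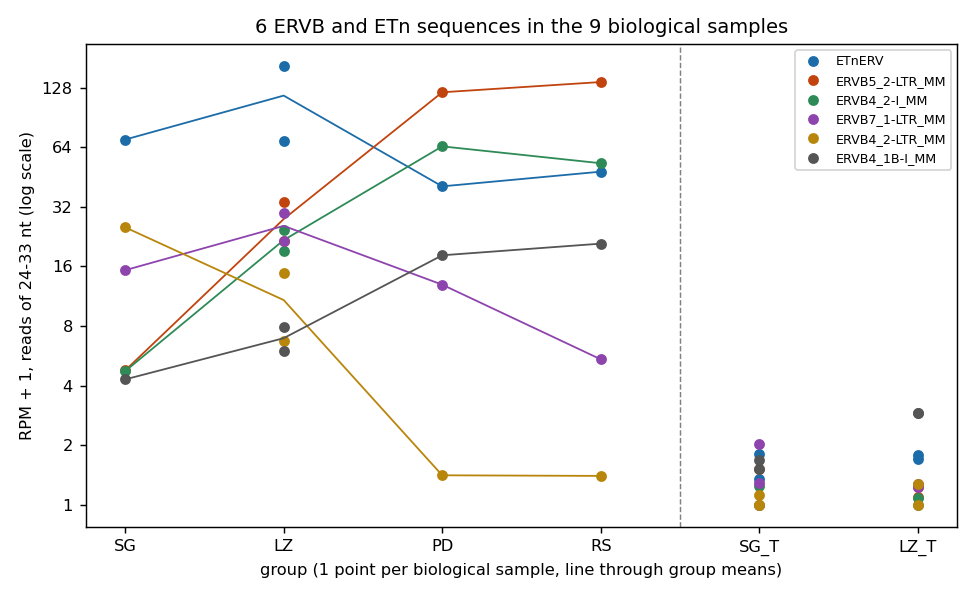
RPM + 1 of 24-33 nt reads (log scale) for the 6 sequences that reached 10 RPM in a group, with 1 point per biological sample and a line through the group means of SG, LZ, PD and RS. ETnERV was highest in SG and LZ and ERVB5_2-LTR_MM in PD and RS, and all points of SG_T and LZ_T lie under 2 RPM.

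ETnERV was the most abundant of the 24 sequences in SG and LZ. It gave 68.9 RPM in SG (95% Poisson interval 64.6 to 73.6), 67.6 and 164 RPM in the LZ libraries, 39.6 RPM in PD (36.3 to 43.1) and 47.2 RPM in RS (43.5 to 51.2). Of the LZ libraries only the higher stood above SG. Both lay above PD and RS. From LZ to PD the mean of ETnERV was 2.92 times lower, a log2 ratio of -1.55 that stayed negative on the total of listed reads (-0.51) but became 1.85 when RPM was divided by the miRNA share of each library.

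ERVB5_2-LTR_MM, an LTR, took over as the most abundant member after the onset of pachytene. Its level was 3.77 RPM in SG (2.79 to 4.96), 32.98 and 20.5 RPM in the LZ libraries, 120 RPM in PD (114 to 126) and 136 RPM in RS (129 to 142). The samples of successive stages up to PD did not overlap, and PD stood 31.9 times above SG. ERVB4_2-I_MM, an internal region, ran beside it with 3.73 RPM in SG, 23.3 and 18.1 RPM in the LZ libraries, 63.6 RPM in PD and 52.1 RPM in RS. ERVB4_1B-I_MM, another internal region, gave 3.30 RPM in SG, 6.94 and 4.95 RPM in the LZ libraries, 17.2 RPM in PD and 19.9 RPM in RS. Of these 3 sequences the ratios of LZ to SG and of PD to LZ were above 1 on RPM, on the listed total and on the miRNA share alike.

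ERVB4_2-LTR_MM, whose name marks it as the LTR of the same ERVB4_2 group as ERVB4_2-I_MM, went the other way. It gave 24.2 RPM in SG (21.7 to 27.03), 5.75 and 13.9 RPM in the LZ libraries, 0.41 RPM in PD (0.12 to 0.88) and 0.40 RPM in RS (0.13 to 0.93). SG lay above both LZ libraries and both lay above PD and RS, with PD 59.1 times below SG. Thus in SG the LTR gave more reads than the internal region, and in PD and RS the internal region gave more than the LTR. Levels are not per length, so the order of these sequences within a sample also carries their lengths, while the reversal between samples does not. The direction from SG to LZ and from LZ to PD was the same on all 3 scalings.

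ERVB7_1-LTR_MM was highest in LZ. It gave 14.3 RPM in SG, 20.4 and 28.9 RPM in the LZ libraries, 11.9 RPM in PD and 4.43 RPM in RS. Both LZ libraries stood above SG, PD and RS. The PD level was 2.06 times below the LZ mean on RPM, with a log2 ratio of -1.04 that became 2.28 on the miRNA share, and the RS level was 2.69 times below PD.

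A stage step was counted when a sequence had at least 10 RPM in either stage, changed by more than 2-fold and, in steps with LZ, had both LZ libraries above or both below the stage compared. From SG to LZ, 2 of 5 eligible members were higher (ERVB4_2-I_MM and ERVB5_2-LTR_MM), beside 28.7% of 87 listed sequences. ERVB4_2-LTR_MM was lower, and it was the 1 listed sequence counted as lower in this step, 1.15% of 87. Without LZ replicate 2, 15 of 83 listed sequences were counted as lower. From LZ to PD, 3 of 5 were higher (the same pair and ERVB4_1B-I_MM), beside 23.4% of 94 listed sequences, and 2 of 5 were lower (ETnERV and ERVB7_1-LTR_MM), beside 42.6%. The median log2 ratio of this step was 1.53 over the 5 members and -0.67 over the listed sequences. The sign of the members' median depends on the floor. ERVB4_2-LTR_MM and ERVB4_1-I_MM, eligible only at a floor of 5 RPM, had log2 ratios of -4.58 and -2.52 in this step. With them the middle value is that of ERVB7_1-LTR_MM, -1.04. From PD to RS no member was higher, beside 0% of 85, and 1 of 5 was lower (ERVB7_1-LTR_MM), beside 44.7%, with medians of 0.17 and -0.88. ERVB4_2-LTR_MM, 23.9 times lower in PD than in LZ, was not eligible in that step, its LZ mean being 9.82 RPM. Without LZ replicate 1 it was no longer counted as lower from SG to LZ, and 4 of 5 members were higher, beside 33.7% of 92 listed sequences. Without LZ replicate 2 neither ETnERV nor ERVB7_1-LTR_MM was counted as lower in PD. Dividing by the listed total added a median of 0.95 to the log2 ratios from LZ to PD and 1.22 to those from PD to RS, and dividing by the miRNA share added 3.34 and -0.25. On the listed total 4 of 6 members were counted as higher from PD to RS, beside 25.5% of 106 listed sequences.

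The other 18 sequences did not exceed 7.76 RPM in the first set. ETnERV2 lay at 3.85 RPM in SG, 3.23 and 5.58 RPM in the LZ libraries, 4.51 RPM in PD and 7.76 RPM in RS. ERVB4_1-I_MM lay at 6.52 RPM in SG, 4.51 and 6.76 RPM in the LZ libraries, 0.98 RPM in PD and 1.63 RPM in RS. ETnERV3 lay between 0.35 RPM in PD and 1.67 RPM in SG. The remaining 15 did not exceed 2.07 RPM, which ERVB5_1-LTR_MM reached in PD.

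Reads of 24-33 nt that matched the 24 sequences were mostly antisense. Summed over them, the antisense share was 81.7% in SG (95% Wilson interval 79.8% to 83.4%), 73.1% and 74.5% in the LZ libraries, 78.0% in PD (76.6% to 79.4%) and 72.6% in RS (71.1% to 74.1%). Over the other 238 listed sequences it was 32.9% in SG, 45.2% and 41.1% in the LZ libraries, 71.2% in PD and 61.1% in RS. The intervals of the 2 shares did not overlap in any of these libraries, and the distance between them was widest in SG. Without ERVB5_2-LTR_MM the members' share was 63.2% in PD and 52.3% in RS, below that of the other listed sequences, so the order in these stages rests on 1 sequence. The nearly level sum concealed opposite movements of single sequences.

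**Figure D2:**
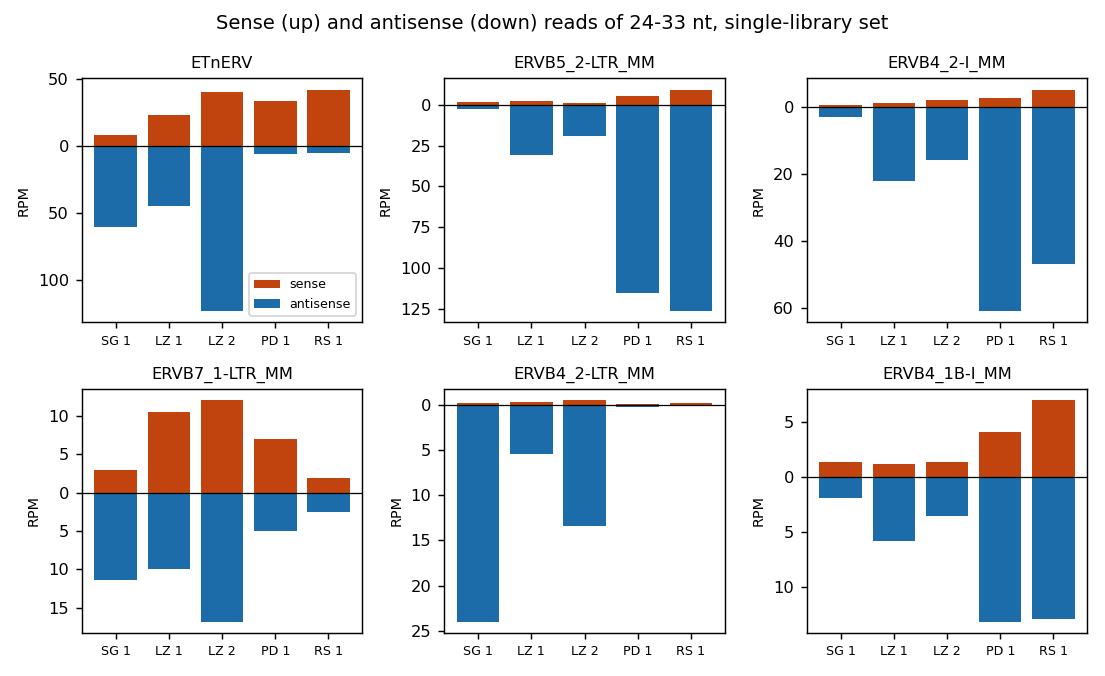
RPM of 24-33 nt reads on the sense strand (bars above 0) and the antisense strand (bars below 0) for 6 sequences in the 5 libraries of the first set; each panel has its own scale. ETnERV bars turn from antisense in SG and LZ to sense in PD and RS, while ERVB5_2-LTR_MM and ERVB4_2-I_MM lie mainly below 0 in LZ, PD and RS.

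The strand of ETnERV reversed between LZ and PD. Antisense reads gave 60.4 RPM in SG, 44.5 and 123 RPM in the LZ libraries, 5.71 RPM in PD and 4.76 RPM in RS. Sense reads gave 8.51 RPM in SG, 23.03 and 40.5 RPM in the LZ libraries, 33.9 RPM in PD and 42.4 RPM in RS. Antisense reads of PD and RS thus lay below both LZ libraries, and sense reads of PD lay between them. The antisense share was 87.7% in SG (85.4% to 89.6%), 65.9% and 75.2% in the LZ libraries, 14.4% in PD (11.7% to 17.7%) and 10.1% in RS (7.96% to 12.8%). ETnERV2 showed the same order at a lower level, with 91.4% antisense in SG, 75.2% and 79.2% in the LZ libraries, 16.9% in PD and 8.76% in RS. As reads that match both sequences equally well are divided between them, ETnERV and ETnERV2 may share reads and are not independent observations.

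ERVB4_1-I_MM reversed in the opposite direction. Its antisense share was 20.6% in SG (13.5% to 30.4%), 21.5% and 16.7% in the LZ libraries, 91.8% in PD (66.7% to 98.6%) and 97.5% in RS (77.3% to 99.2%). The late shares rest on an estimated 13 and 20.4 reads. Sense reads of ERVB4_1-I_MM went from 5.19 RPM in SG and 3.54 and 5.63 RPM in LZ to 0.08 RPM in PD and 0.04 RPM in RS. Its antisense reads lay between 0.90 and 1.59 RPM in all 5 libraries.

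The sequences that rose towards PD were mostly antisense in LZ and PD. ERVB5_2-LTR_MM was antisense to 62.3% in SG, 92.9% and 93.6% in the LZ libraries, 95.8% in PD and 93.1% in RS. ERVB4_2-I_MM was antisense to 83.9% in SG, 94.6% and 88.1% in the LZ libraries, 95.9% in PD and 90.1% in RS. ERVB4_1B-I_MM was antisense to 58.2% in SG, 84.0% and 72.5% in the LZ libraries, 76.5% in PD and 64.9% in RS. ERVB4_2-LTR_MM was nearly all antisense where it was abundant, 99.1% in SG and 94.4% and 96.3% in LZ. ERVB7_1-LTR_MM changed from 79.2% in SG to 48.7% and 58.3% in the LZ libraries, 42.0% in PD and 56.7% in RS.

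**Figure D3:**
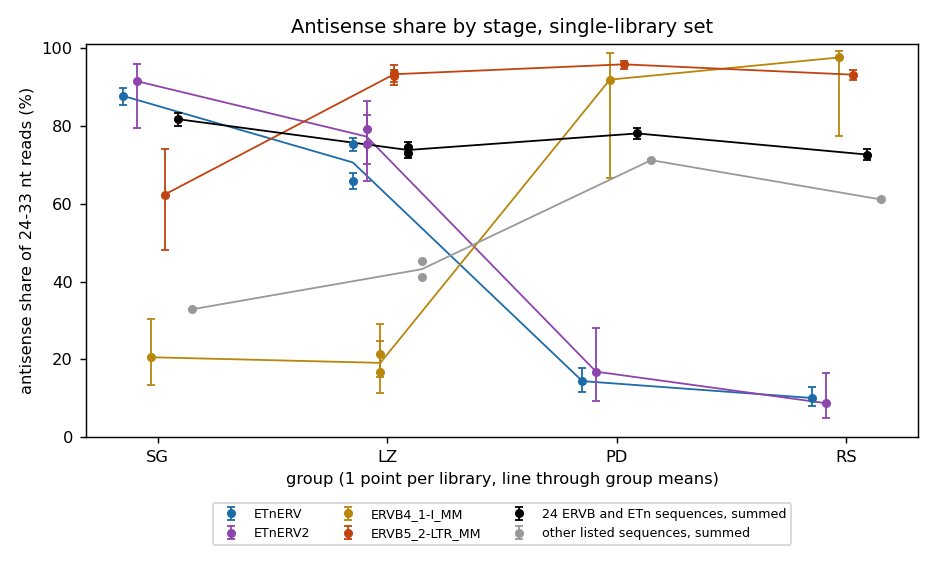
Antisense share (%) of 24-33 nt reads in SG, LZ, PD and RS, with 1 point per library, 95% Wilson intervals as bars and a line through group means. ETnERV and ETnERV2 drop from 65.9% or more to 16.9% or less between LZ and PD, ERVB4_1-I_MM rises from 21.5% or less to 91.8% or more, and the sum of the 24 sequences stays between 72.6% and 81.7%.

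MMETn-int and RLTRETN_Mm, the internal region and LTR of ETn, do not begin with the chosen letters and were taken as the nearest relatives. MMETn-int gave 29.1 RPM in SG, 83.1 and 169 RPM in the LZ libraries, 52.3 RPM in PD and 38.4 RPM in RS, with the higher LZ library the same as for ETnERV. Its antisense share was 51.8% in SG, 20.1% and 38.8% in the LZ libraries, 9.72% in PD and 24.1% in RS, lower than that of ETnERV in SG, LZ and PD. RLTRETN_Mm gave 11.9 RPM in SG, 19.9 and 28.2 RPM in the LZ libraries, 21.5 RPM in PD and 12.1 RPM in RS, and its antisense share stayed between 68.1% and 81.2%. The strand change of ETnERV therefore had no counterpart of that size in the ETn LTR. The internal region MMETn-int, mainly sense in LZ already, also lost antisense reads. They went from 16.7 and 65.5 RPM in the LZ libraries to 5.08 RPM in PD and 9.25 RPM in RS.

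Across the 9 biological samples, the 5 other listed sequences whose log2(RPM + 1) followed ETnERV most closely were MMERVK9E_I (Pearson's r = 0.995), MuRRS-int (0.995), RLTR9D (0.986), IAPEY3C_LTR (0.986) and MMETn-int (0.985). These values are a description, since the contrast between the 2 sets dominates them. Within the 5 libraries of the first set the same pairs gave 0.905, 0.965, 0.626, 0.974 and 0.752.

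Read length was examined next. Of the 24-33 nt reads of the 24 sequences, those of 28-33 nt made up 39.9% in SG, 40.7% and 39.1% in the LZ libraries, 73.4% in PD and 84.0% in RS. The other listed sequences gave 43.0%, 42.6% and 44.8%, 75.1% and 82.4%, and whether the rises differ was not tested. The longer reads gained on both strands of ETnERV, whose antisense reads were of 28-33 nt to 44.5% in SG, 38.8% and 41.0% in the LZ libraries, 76.9% in PD and 68.7% in RS, and whose sense reads were so to 49.6%, 28.3% and 34.9%, 73.9% and 87.7%. Among the 6 sequences of at least 10 RPM in a group, ERVB4_2-LTR_MM stood apart. Its share was 18.6% in SG and 22.6% and 12.4% in LZ, where it still gave reads. Some less abundant sequences were lower, such as ERVB3_1-LTR_MM with 0% in SG and a mean of 9.4% in LZ. ERVB5_2-LTR_MM was at 52.5% in SG and 58.0% and 53.0% in LZ before it reached 74.9% in PD and 82.5% in RS.

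Reads of 19-23 nt have the length of miRNAs and endogenous siRNAs. Summed over the 24 sequences, they exceeded 24-33 nt reads in every SG_T and LZ_T sample. Of the first set they did so in RS alone (295.8 against 273 RPM). The 19-23 nt sum was 165 and 126 RPM in LZ and 76.6 and 49.9 RPM in LZ_T. The 24-33 nt sum was 172 and 271 RPM in LZ and 8.40 and 5.64 RPM in LZ_T. Whether the falls differ was not tested. Single sequences gave more reads of 19-23 nt than of 24-33 nt in other libraries of the first set too. Sense reads of 19-23 nt from ERVB5_2-LTR_MM were listed at 0 in SG, at 6.01 and 2.59 RPM in LZ, at 37.3 RPM in PD and at 133 RPM in RS. Its antisense reads of that length gave 0.52 RPM in SG, 6.69 and 2.92 RPM in the LZ libraries, 15.1 RPM in PD and 18.3 RPM in RS. In RS the 19-23 nt reads of this LTR were thus mainly sense, and its 24-33 nt reads mainly antisense (9.33 RPM sense against 126 RPM antisense). ERVB2_1A-I_MM, an internal region with at most 0.37 RPM of 24-33 nt reads in the first set, gave antisense 19-23 nt reads of 2.28 RPM in SG, 33.3 and 10.2 RPM in the LZ libraries, 44.4 RPM in PD and 9.99 RPM in RS. ETnERV2 gave sense 19-23 nt reads of 2.95 RPM in SG, 19.1 and 24.4 RPM in the LZ libraries, 18.7 RPM in PD and 4.34 RPM in RS. In the samples of SG_T and LZ_T these strands gave at most 0.52 RPM for ERVB5_2-LTR_MM, 2.62 RPM for ERVB2_1A-I_MM and 1.37 RPM for ETnERV2 at 19-23 nt.

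**Figure D4:**
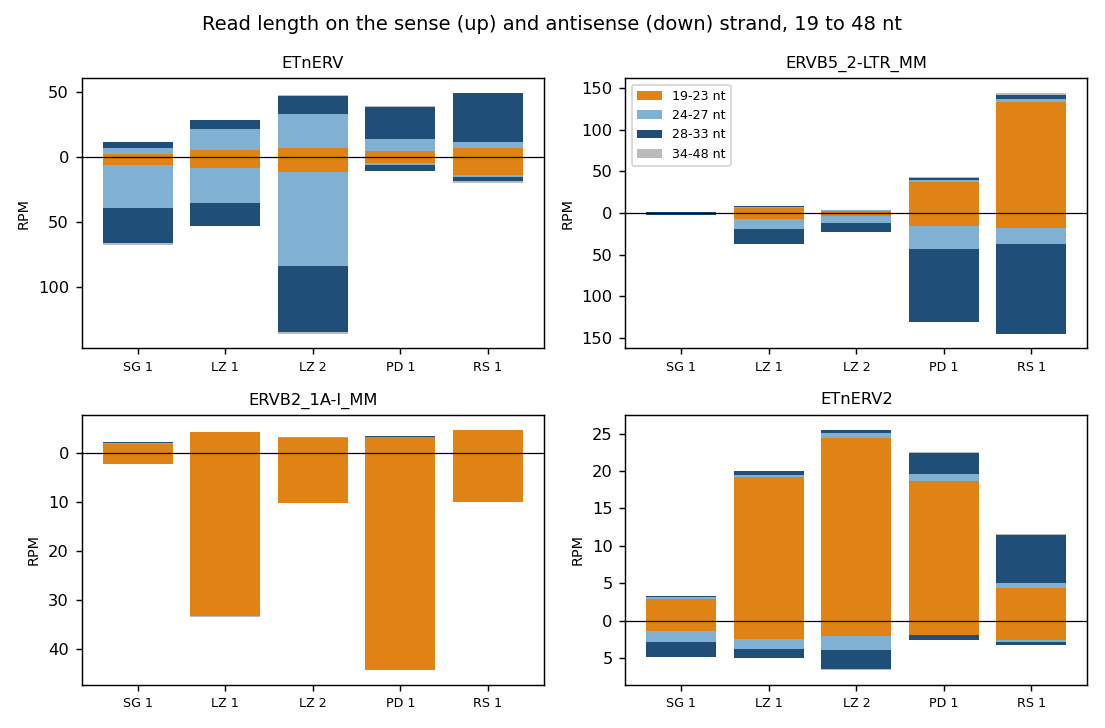
RPM of reads of 19-23, 24-27, 28-33 and 34-48 nt, stacked, on the sense strand (above 0) and the antisense strand (below 0) of 4 sequences in the 5 libraries of the first set; each panel has its own scale. The 19-23 nt class makes up most of ERVB2_1A-I_MM in all 5 libraries, most sense ETnERV2 reads in SG, LZ and PD, and 133 RPM of sense ERVB5_2-LTR_MM reads in RS.

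Reads of 11-18 nt outnumbered all others. They made up 89.8% to 98.6% of the reads of all lengths that matched the 24 sequences in the first set and 99.3% to 99.5% in SG_T and LZ_T. Each of the 8 ERVB internal regions had 422 to 1327 RPM of them in LZ and 460.5 to 2045 RPM in LZ_T, against 22.02 to 110 RPM and 25.1 to 142 RPM for the 13 LTRs. Levels are not per length, so the contrast between internal regions and LTRs also carries the lengths of the sequences. Whether reads this short came from these elements was not tested. The part of the 11-18 nt reads in the counts over all read lengths is given in the closing section. ERVB7_2B-LTR_MM was an exception among the LTRs in SG, with 1349 RPM of antisense 11-18 nt reads, against 53.3 and 31.2 RPM in the LZ libraries, 203 RPM in PD, 189 RPM in RS and 92.8 to 224 RPM in the samples of SG_T and LZ_T.

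The sets were compared to ask how the small RNAs of these elements differed in L/Z cells whose tables carry the Pld6 knockout tag. All 24 sequences together gave 8.40 and 5.64 RPM in LZ_T, against 172 and 271 RPM in LZ. They made up 0.0375% and 0.0240% of the listed reads in LZ_T, against 0.776% and 0.719%. In SG_T they gave 6.30 and 4.83 RPM, against 138 RPM in the single SG library, and 0.168% and 0.172% of the listed reads, against 0.418%. The listed total itself was 22388 and 23471 RPM in LZ_T, against 22092 and 37677 RPM in LZ, and 3745 and 2800 RPM in SG_T, against 32895 RPM in SG. The highest value of any of the 24 sequences in any T library was 3.13 RPM, for ETnERV3.

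**Figure D5:**
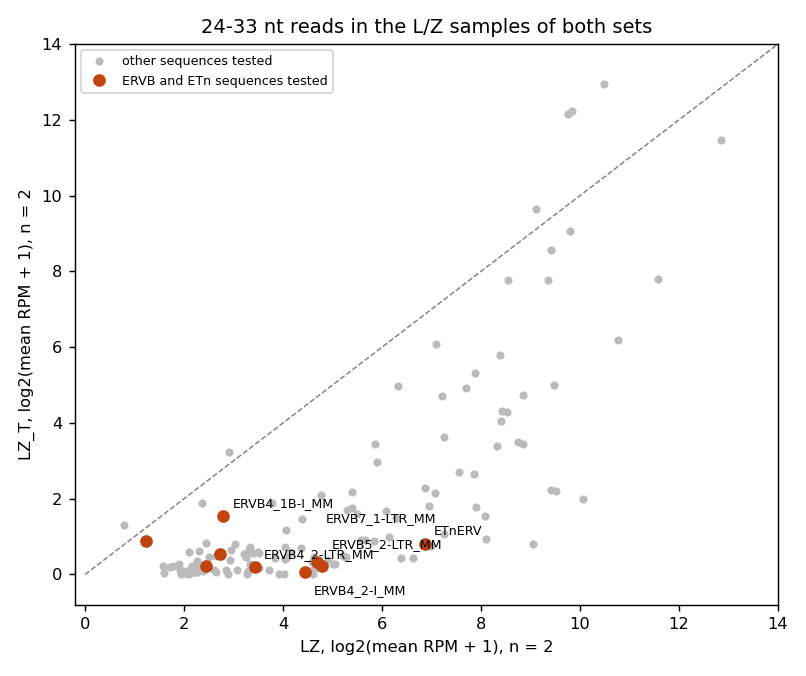
Mean level of 24-33 nt reads in LZ (x) and LZ_T (y) as log2(mean RPM + 1), n = 2 samples each, for the 136 sequences tested, with the 9 ERVB and ETn sequences in red and equality as the dashed line. All 9 lie below the line; ETnERV3 and ERVB4_1B-I_MM lie nearest to it.

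With limma on log2(RPM + 1), 9 of the 24 sequences averaged 1 RPM or more in the 4 samples and were tested. Of the 9, 8 were lower in LZ_T at an adjusted p under 0.05, as were 90.4% of all 136 sequences tested. All of the 9 but ERVB4_1B-I_MM (LZ_T mean 1.90 RPM) passed that minimum through LZ. The count therefore describes the 9 and supports no statement on all 24. The median log2 difference was -3.15 over the 9 and -2.87 over the 136, and on the listed total -3.01 and -2.74. In the fits of all reads and of sense reads limma took the spread wholly from sequences of like abundance, which makes p-values small for 2 samples a group. The spread is between samples labelled as biological replicates, whose animals the labels do not name. In those fits it is pooled over sequences, and the replicates of a single sequence have no weight of their own.

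ETnERV gave 67.6 and 164 RPM in LZ and 0.71 and 0.79 RPM in LZ_T. The groups did not overlap, and the LZ mean was 155 times the LZ_T mean. That ratio rests on few reads, since the LZ_T values average runs of 0 and 1.42 RPM and of 0.66 and 0.91 RPM. The log2 difference was -5.93 ± 0.60 (SE; limma, adjusted p = 4.6e-19), and -5.72 with technical replicates weighted by reads. ERVB5_2-LTR_MM gave 32.98 and 20.5 RPM in LZ and 0.095 RPM (95% Poisson interval on the reads of both runs 0.0041 to 0.895) and 0.23 RPM (0.023 to 0.671) in LZ_T, a log2 difference of -4.54 ± 0.52 (limma, adjusted p = 2.2e-15). ERVB4_2-I_MM gave 23.3 and 18.1 RPM in LZ and was listed at 0 and 0.08 RPM in LZ_T (upper limits 0.593 and 0.343), a log2 difference of -4.37 ± 0.49 (limma, adjusted p = 8.4e-16).

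ERVB7_1-LTR_MM gave 20.4 and 28.9 RPM in LZ and 0.24 and 0.28 RPM in LZ_T, with a log2 difference of -4.33 (limma, adjusted p = 2.6e-14). ERVB4_2-LTR_MM gave 5.75 and 13.9 RPM in LZ and was listed at 0 and 0.28 RPM in LZ_T, with a log2 difference of -3.15 (limma, adjusted p = 1.3e-12). ERVB4_1-I_MM and ETnERV2 were lower by log2 differences of -2.18 each. The relatives MMETn-int and RLTRETN_Mm had log2 differences of -6.18 and -4.30 (limma, adjusted p = 3.5e-20 and 2.9e-14). Their LZ_T means were 0.67 and 0.26 RPM, so they too passed the minimum through LZ and these values only describe them.

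ERVB4_1B-I_MM and ETnERV3 differed least. ERVB4_1B-I_MM gave 6.94 and 4.95 RPM in LZ and 1.90 and 1.91 RPM in LZ_T, a log2 difference of -1.24 ± 0.48 (limma, adjusted p = 0.011) that did not pass the threshold without either LZ_T sample (adjusted p = 0.15 and 0.14). ETnERV3 gave 1.12 and 1.60 RPM in LZ and 0.82 and 0.91 RPM in LZ_T, a log2 difference of -0.34 ± 0.29 (limma, adjusted p = 0.25). In SG_T, ETnERV3 lay at 2.68 and 1.57 RPM beside 1.67 RPM in SG. In the first SG_T sample ETnERV3 rests on an estimated 20.2 reads, and in the second on 3, with Poisson intervals of 1.65 to 4.17 RPM and 0.342 to 4.84 RPM.

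The difference between the sets was not the same on both strands of ERVB4_1B-I_MM. Its antisense reads gave 5.83 and 3.59 RPM in LZ and 0.095 and 0.13 RPM in LZ_T, a log2 difference of -2.33 ± 0.34 (limma, adjusted p = 7.3e-06). Its sense reads gave 1.12 and 1.37 RPM in LZ and 1.81 and 1.78 RPM in LZ_T, a log2 difference of 0.32 ± 0.35 (limma, adjusted p = 0.39), which passed the threshold without LZ replicate 2 (0.40, adjusted p = 0.029). The antisense share accordingly was 84.0% and 72.5% in LZ and 5% and 6.82% in LZ_T, without overlap. The LZ_T shares rest on an estimated 15.5 and 22.5 reads, and the difference between the strands was not tested.

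On antisense reads, all 7 of the 24 sequences that were tested were lower in LZ_T, beside 93.3% of the 105 listed sequences tested. Their LZ_T means were 0 to 0.61 RPM, so they passed the minimum through LZ and the count only describes them. ETnERV antisense reads gave 0.57 and 0.66 RPM in LZ_T, a log2 difference of -5.54 (limma, adjusted p = 1.9e-07). ERVB4_2-I_MM had no antisense read of 24-33 nt in either LZ_T sample. Its LZ antisense mean was 108 times the floor of 3 reads over the LZ_T group, which is higher in each single sample. On sense reads 3 of 4 were lower, beside 84.6% of 104. These were ETnERV (-4.80), ERVB7_1-LTR_MM (-3.39) and ERVB4_1-I_MM (-2.03), and ERVB4_1B-I_MM was the fourth. The 3 that were lower likewise passed the minimum through LZ. Without LZ_T replicate 2 the count was 5 of 6, beside 73.6% of 110.

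Within the T set, L/Z cells were compared with spermatogonia. ERVB4_1B-I_MM and ETnERV3 were the 2 of the 24 sequences that averaged 1 RPM or more and were tested. ERVB4_1B-I_MM passed that minimum through LZ_T (mean 1.90 RPM, against 0.60 RPM in SG_T). ETnERV3 passed it through SG_T (2.12 RPM, against 0.86 RPM in LZ_T). The second SG_T value of ERVB4_1B-I_MM is also under the floor of 3 reads, 1.66 RPM in that sample. The tests that follow therefore only describe these 2 sequences. With limma none of them passed the threshold in either direction, and at an unadjusted p under 0.05 there was 1, ERVB4_1B-I_MM, whereas 36.2% of the 58 listed sequences tested were higher in LZ_T. Directions here depended on the scaling: the median log2 difference over the sequences tested was 0.80 on RPM, -0.13 on the miRNA share and -1.57 on the listed total, on which 2.60% of 77 were higher and 59.7% lower. ERVB4_1B-I_MM gave 0.69 and 0.52 RPM in SG_T and 1.90 and 1.91 RPM in LZ_T, a log2 difference of 0.86 ± 0.32 (limma, adjusted p = 0.058), with both LZ_T samples above both SG_T samples on RPM, but of -0.71 on the listed total (limma, adjusted p = 0.087). ETnERV3 had a log2 difference of -0.72 ± 0.34 (limma, adjusted p = 0.11), with both LZ_T samples below both SG_T samples, and of -2.64 on the listed total (limma, adjusted p = 0.0018). On the listed total 5 members were tested and ERVB7_1-LTR_MM was the other one lower (-1.54, limma, adjusted p = 0.031). On RPM its means were 0.67 in SG_T and 0.255 in LZ_T, under the minimum, so it was not tested there. The header tags number the T samples alike in both stages without saying what a number marks, and with the number as a block both members tested on RPM passed, ERVB4_1B-I_MM as higher (limma, adjusted p = 0.0059) and ETnERV3 as lower (limma, adjusted p = 0.032). The 24 sequences together rest on an estimated 55 and 9 reads in SG_T and 58.8 and 60.8 reads in LZ_T.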

How the data were processed

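Small RNA libraries of sorted mouse germ cells were analysed. For each library the authors deposited raw counts of distinct adapter-trimmed reads (cutadapt, per the labels) and a table of RPM values. Per the study's methods, the authors used SeqMap to discard reads from miRNAs and other abundant noncoding RNAs, mapped the rest to retrotransposon consensus sequences allowing 2 mismatches, divided reads with several best matches equally, and scaled to library reads. Reads of 24-33 nt were used as piRNAs. Between 6 and 8 rows per table (satellites, a noncoding RNA, stray names) were left out. The raw counts served for depth, miRNA markers (1738 RefSeq mature miRNAs, first 18 nt matched) and estimated reads (RPM times library reads). Averaged log2(RPM + 1) values were fitted with limma 3.58.1 in R 4.3.3 with an abundance trend, for sequences of at least 1 RPM on average, with Benjamini-Hochberg adjustment (two-sided, 0.05). On this scale the fold changes of low values come out too small. Sequences of at least 10 RPM in a group are given in every sample and the others by range; MMETn-int and RLTRETN_Mm were added as relatives, and the 5 sequences most correlated with the member of the highest LZ mean were named. Members and lists were chosen with earlier results of these data known. Because reads were divided, sequences that resemble each other share reads. miR-34c-5p, miR-143-3p and miR-145a-5p were not matched. One line of the SG read list had no count and was left out.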

Additional observations from a re-analysis of the deposited data

Results flagged for a closer look

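Among reads of 19-23 and 34-48 nt, the following exceeded both 10 RPM and the 24-33 nt reads of the same strand. Reads of 11-18 nt, which exceed both for most sequences, were not screened. Antisense 19-23 nt reads of ERVB2_1A-I_MM gave 33.3 and 10.2 RPM in LZ and 44.4 RPM in PD, beside 0.07, 0.14 and 0 RPM of 24-33 nt. Sense 19-23 nt reads of ERVB5_2-LTR_MM gave 37.3 RPM in PD and 133 RPM in RS, beside 5.08 and 9.33 RPM. Sense 19-23 nt reads of ETnERV2 gave 19.1 and 24.4 RPM in LZ and 18.7 RPM in PD, beside 0.80, 1.16 and 3.75 RPM. Sense 19-23 nt reads of ERVB4_3-I_MM gave 11.5 RPM in LZ replicate 1, beside 0.10 RPM. In RS, sense 19-23 nt reads of ERVB4_2-I_MM gave 12.8 RPM, beside 5.18 RPM, and antisense 19-23 nt reads of ETnERV gave 13.7 RPM, beside 4.76 RPM.

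ERVB7_1-LTR_MM moved in opposite directions from SG to L/Z in the sets: the LZ mean was 10.3 RPM above SG, while both LZ_T samples (0.24 and 0.28 RPM) lay below both SG_T samples (1.04 and 0.30 RPM). The difference was not tested, and 2 of the 4 T values rest on fewer than 3 estimated reads.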

How the results depend on the processing

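Of the 24 sequences, 9 were tested and 8 of these were lower in LZ_T than in LZ. Without the minimum level this was 16 of 24 (76.1% of 259 listed sequences), with a minimum of 5 RPM 4 of 4 (88.2% of 85), and over all read lengths 2 of 24, with 2 higher (19.8% of 262, with 9.54% higher). Over all lengths, most of which are 11-18 nt reads, the log2 difference was 0.0801 for ERVB4_1B-I_MM, 0.0769 for ERVB4_2-I_MM, 0.0912 for ERVB4_2-LTR_MM and 0.0855 for ETnERV, none past the threshold. Leaving out 1 sample gave 7 to 9, 9 being without LZ replicate 1. On antisense reads the count was 13 of 24 with no minimum (listed 68.7%) and 4 of 4 with 5 RPM (90.8%), and 6 to 7 without 1 sample; on sense reads it was 10 of 23 with no minimum (65.6%) and 3 to 5 without 1 sample, 5 being without LZ_T replicate 2. The LZ and LZ_T samples share only replicate numbers: same-numbered samples correlated at -0.19 over 136 sequences (SG_T and LZ_T 0.11 over 58, and 0.31 over the 24 of at least 10 RPM). In a fit with a replicate block, 7 of 9 were lower (ERVB4_1B-I_MM adjusted p = 0.072), and between LZ_T and SG_T 1 was higher (ERVB4_1B-I_MM) and 1 lower (ETnERV3), against none, with 50% of 58 listed sequences higher; 1 was also higher with technical replicates weighted by reads, an alternative added after seeing the data. Leaving out 1 sample gave 0 for the latter comparison. The log2 difference of ERVB4_1B-I_MM between LZ_T and SG_T turned to -0.71 on the listed total and -0.144 over all read lengths, neither past the threshold. In this comparison ERVB4_1B-I_MM and ETnERV3 each passed the minimum on RPM through the group in which it was higher.

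Of the stage steps, members higher from SG to LZ numbered 4 on the miRNA share (listed 43.2%) and 2 to 4 without 1 LZ library, and lower 0 on the miRNA share and 0 to 1 without 1 LZ library. From LZ to PD, 7 of 7 were higher on the miRNA share (listed 88.3%); lower were 4 of 7 at a floor of 5 RPM (43.2%), 0 on the listed total (19.2%), 0 on the miRNA share (1.46%) and 0 to 3 without 1 LZ library. From PD to RS, on the listed total 4 were higher (listed 25.5%) and 0 lower (5.66%). The antisense share, as a mean over members of at least 10 RPM, was 88.6% in SG, 78.9% in LZ, 64.9% in PD and 64.5% in RS; without the top member it was 75.7%, 75.5%, 63.2% and 52.3%, and for LZ 73.1% to 74.5% without 1 library. Values of the T set rest on few reads.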
